A study of Caenorhabditis elegans with 4 samples.

Results

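The regions described here are the stretches of chromosome III of Caenorhabditis elegans at which LIN-39 was found by chromatin immunoprecipitation and sequencing (ChIP-seq) in larvae of the third stage (L3). They were chosen by chromosome alone: every entry on III in the authors' deposited list of regions, 1068 of 7493 in all, or 14.3%. The list holds regions with more ChIP than input reads at q below 0.01, and 29.4% of the 25497 regions inferred to have been tested entered it. How many regions were tested on III alone was not given in the sources used here. Chromosomes II, IV, V and X, with 1057, 1055, 1020 and 1509 regions, serve as the comparison. Of the regions on III and these chromosomes together, III held 18.7%. Chromosome I was not part of the comparison, so no density below places III against it or against the whole genome.

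There were 4 libraries, 2 of ChIP DNA and 2 of input DNA, from hermaphrodites of strain OP18 grown at 20 °C and crosslinked with 2% formaldehyde. All animals carried the unc-119 mutation ed3, on III, and the transgene wgIs18, which holds unc-119(+) and a lin-39 copy fused to the tags TY1, EGFP and 3xFLAG, so ChIP and input share both. The tagged copy was made by recombineering and brought in by bombardment of the mutant, and 1 such line was used. ChIP DNA was recovered with a goat antibody against EGFP, and input DNA was not precipitated. Whole larvae were used, so binding in different tissues cannot be told apart. The list combines the replicates, and no value below has a spread between replicates.

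LIN-39 is a Hox protein, a homeodomain transcription factor that sets the identity of cells in the middle of the body. Known roles are the choice of vulval precursor fates, the development of ventral cord neurons and the movement of Q neuroblasts. Chromosome III carries the lin-39 gene itself. On assembly WBcel235 its next protein-coding neighbour is ceh-13, the Hox gene of the anterior body, and mab-5 and egl-5, Hox genes of the posterior body, lie further along with 38 and 40 protein-coding genes between them and lin-39. The unc-119 locus mutated in the strain is on III too, with 757 protein-coding genes in between. The list uses coordinates of another build, WormBase WS180, so no gene was assigned to any region here. Autosomes of this species have gene-rich centres with little recombination and arms with more repeats and more recombination.

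LIN-39 regions on III were denser than on the comparison chromosomes as a set. There were 77.6 regions per Mb over the 13.8 Mb from base 1 to the last region end, against 65.1 per Mb on II, IV, V and X. The ratio was 1.19, with an exact (Clopper-Pearson) 95% binomial interval of 1.11 to 1.27, which covers counting error within this list and treats regions as independent. Taken singly, III was denser than V by 1.59 times (1.46 to 1.73), than IV by 1.28 times (1.18 to 1.40) and than II by 1.12 times (1.03 to 1.22). Against X the ratio was below 1, at 0.908 (0.839 to 0.983). By covered length the order was the same, with 3.80% of the span of III inside regions, against 3.31% on II, 3.00% on IV, 2.56% on V and 4.14% on X.

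The excess over the 4 chromosomes remained at a stricter limit. At q of 0.001 or less, 756 regions or 70.8% of those on III remained, against 66.8% on II, 66.1% on IV, 62.5% on V and 69.5% on X, and the density ratio to the 4 together was 1.27 (1.17 to 1.37). Among the regions with the smallest q in the whole list III held no more than its share of 14.3%, with 3 of the first 25 and 25 of the first 200 (12.5%), and close to it in the first 1000, with 147 (14.7%).

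Along III the regions were sparse over the left end and dense over the middle. The span was divided into 10 equal bins, numbered from the left end, which held 70, 59, 131, 121, 136, 105, 140, 120, 86 and 100 regions. The lowest was bin 2, from 1377141 to 2754281, with 42.8 regions per Mb (exact 95% binomial interval 32.8 to 54.8). The highest was bin 7, from 8262844 to 9639983, with 101.7 per Mb (86.4 to 118.5), so the range spanned a factor of 2.37. The step between bin 2 and bin 3, with 59 and 131 regions, was the largest between neighbouring bins. Bins 3, 5 and 7 held more than 10% of the regions by their intervals, and bins 1, 2 and 9 held less. Bin 6, with 105 regions or 76.2 per Mb (62.9 to 91.3), lay between fuller neighbours, and its interval included the mean of the chromosome. The corresponding factor between the fullest and the emptiest bin was 2.88 on II, 2.75 on IV, 4.55 on V and 2.28 on X.

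**Figure D1:**
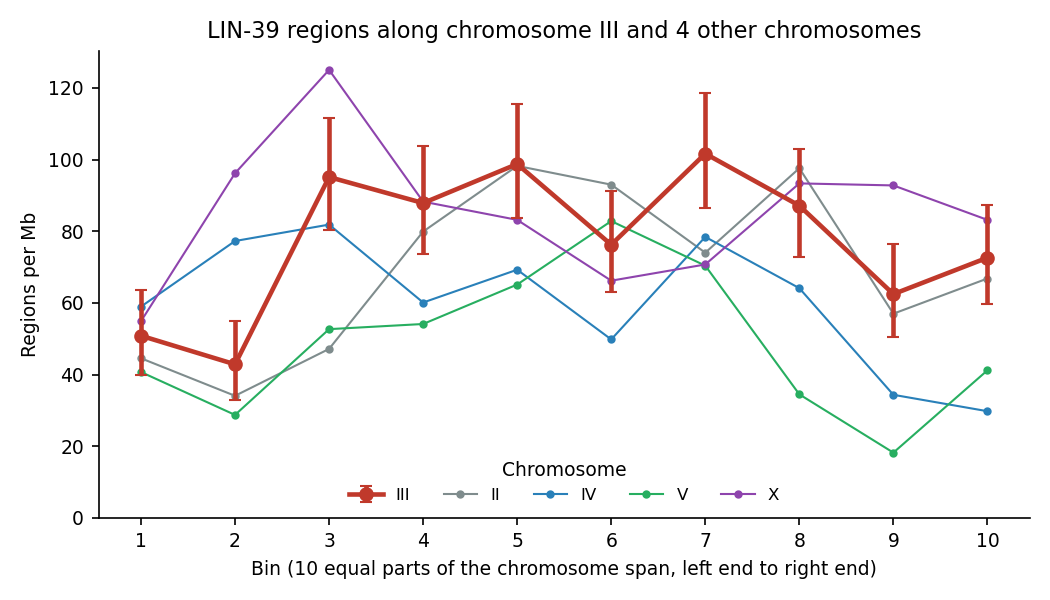
Regions per Mb (vertical axis) in each of 10 equal bins of the chromosome span (horizontal axis, left to right) on III and on II, IV, V and X. Bars on III are exact 95% binomial intervals of the share of regions; bins 1 and 2 of III lie at 50.8 and 42.8 per Mb and the next 5 between 76.2 and 101.7.

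The 1 Mb windows showed the same profile at a finer grain. From the left end, the 13 complete windows of III held 55, 48, 42, 97, 97, 111, 79, 73, 110, 89, 79, 75 and 53 regions, and the partial last window of 0.771 Mb held 60. The fullest was from 5000001 to 6000000 and the emptiest from 2000001 to 3000000. Of these 13 windows, 9 lay above 67, the median of the 69 complete windows of II, IV, V and X. The emptiest window of III held 42 regions, whereas the emptiest held 32 on II, 22 on IV, 13 on V and 38 on X. The variance of the counts over windows was 6.81 times their mean on III, against 8.24 on II, 6.40 on IV, 11.1 on V and 5.78 on X. In windows of 100 kb, III had 2 empty ones of 137, against 4 of 152 on II, 1 of 174 on IV, 19 of 208 on V and 3 of 176 on X. The fullest held 19 regions, a count reached by 3 windows, the first of them from 5600001 to 5700000.

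The arms of III, taken as the outer 30% at each end, held fewer regions per Mb than its centre. The left arm had 260 regions at 62.9 per Mb (exact 95% binomial interval 56.3 to 69.9), the centre 502 at 91.1 (85.3 to 97.0) and the right arm 306 at 74.1 (67.1 to 81.3). The ratio to the centre was 0.691 (0.592 to 0.804) for the left arm and 0.813 (0.703 to 0.939) for the right arm, and both intervals lay below 1. The left arm had 0.850 times the density of the right arm, with an interval of 0.717 to 1.006 that included 1. The low density of the left arm came from bins 1 and 2, since bin 3, the inner end of that arm, held 95.1 regions per Mb, within the range of 76.2 to 101.7 in the bins of the centre.

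Both arms together held 53.0% of the regions of III, a share between that of X, 63.9%, and that of V, 44.2%. The ratio of arm to centre density was 0.752 on III (0.665 to 0.849), against 0.670 on II, 0.896 on IV, 0.528 on V and 1.18 on X. The arm share was lower on III than on X, with an odds ratio of 0.637 (0.542 to 0.750; two-sided Fisher's exact test, Benjamini-Hochberg adjusted over the 4 chromosomes, p = 1.5e-07). It was higher on III than on V, with an odds ratio of 1.42 (1.19 to 1.70, adjusted p = 1.3e-04 by the same exact test). Against IV the odds ratio was 0.839 (0.704 to 0.999, adjusted p = 0.060), and against II it was 1.12 (0.942 to 1.33, adjusted p = 0.193, both by the exact test), so neither difference passed. With arms of 35% the difference from IV passed, at an adjusted p of 0.040 by the exact test. Crowded regions are not independent, as these tests assume. With each run of midpoints under 2000 bp apart taken as 1 region, the differences from X and V still passed the exact test (adjusted p = 8.9e-04 and 0.0015). This joins near neighbours only. Before joining, the variance of counts over 1 Mb windows was 6.81 times their mean on III, 5.78 on X and 11.1 on V. Variation over such longer distances is not covered, so these p-values can be too small.

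**Figure D2:**
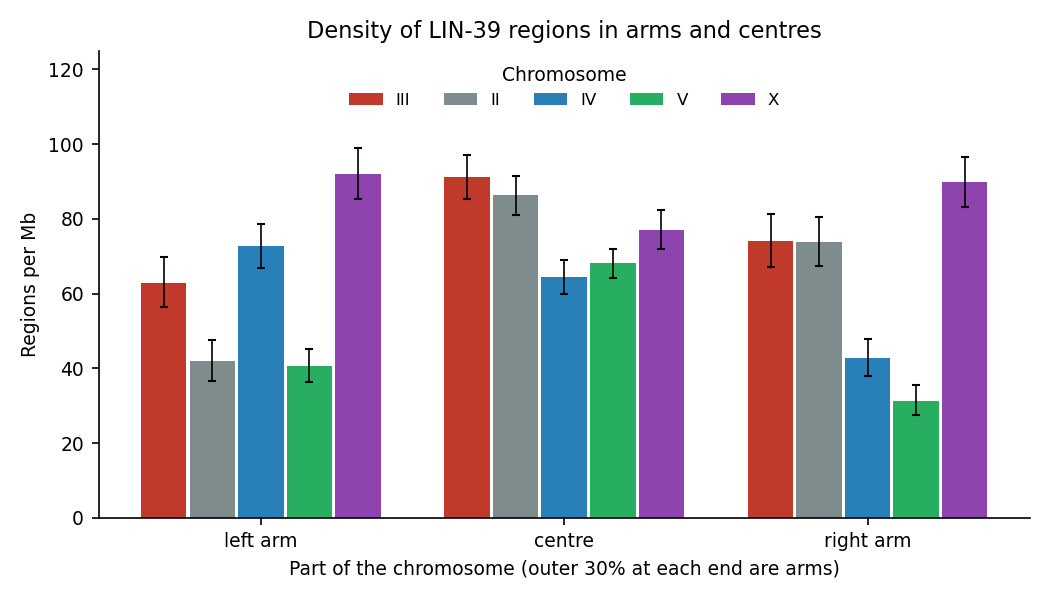
Regions per Mb (vertical axis) in the left arm, centre and right arm (horizontal axis) of III, II, IV, V and X; bars are densities and error bars exact 95% binomial intervals. On III the centre stands at 91.1 per Mb, above its left arm at 62.9 and its right arm at 74.1, whereas on X both arms stand above the centre.

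Part by part, III differed from the other chromosomes in different places. Its centre was denser than the centres of IV (ratio 1.42, exact 95% binomial interval 1.24 to 1.61), V (1.34, 1.18 to 1.51) and X (1.18, 1.05 to 1.34), and was not separated from that of II (1.06, 0.933 to 1.20). Against X, then, the centre of III was the denser and both arms of III the sparser, at 0.684 (0.586 to 0.796) on the left and 0.825 (0.712 to 0.954) on the right. Against II the difference lay in the left arm, where III was 1.501 times denser (1.24 to 1.82), while the right arms stood at a ratio of 1.00 (0.857 to 1.18). Against V the right arm differed most, at 2.37 (1.97 to 2.85), and the left arm stood at 1.55 (1.30 to 1.85). Against IV the right arm of III was 1.73 times denser (1.45 to 2.07), and the left arms were not separated, at 0.866 (0.737 to 1.02).

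The widths of regions on III were close to those elsewhere. The median was 361.5 bp (order-statistic 95% interval 347 to 376), with an interquartile range of 249 to 560 bp, against medians of 349 bp on II, 385 bp on IV, 391 bp on V and 387 bp on X. The interval for III overlapped those for II (335 to 362 bp), IV (372 to 404 bp) and X (372 to 399 bp) and ended just below that for V (377 to 411 bp). Widths ran between 1 and 7810 bp. Regions of at least 1000 bp numbered 84 on III, or 7.87% (exact 95% binomial interval 6.32 to 9.65), against 8.61% on II, 7.20% on IV, 8.92% on V and 6.23% on X. None of these 4 differences passed Fisher's exact test (odds ratios 0.906, 1.10, 0.871 and 1.29 for III over II, IV, V and X, intervals reaching 0.631 at the low end and 1.76 at the high end, lowest adjusted p = 0.459). Within III the median width was 368 bp in the left arm, 349.5 bp in the centre and 373 bp in the right arm, with overlapping intervals.

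Read numbers were worked out backwards from q by assuming a binomial comparison of ChIP with scaled input, and a single pair of numbers was found for all 1068 regions. The median region of III held 92 ChIP reads, with an interquartile range of 51 to 152, against 38 scaled input reads. On II, IV, V and X the medians were 79, 84, 82 and 88 ChIP reads and 29, 33, 33 and 36 scaled input reads. Both medians were thus highest on III, and the part of read numbers in its density of listed regions was not tested. Enrichment, the ratio of ChIP to scaled input reads, had a median of 2.45 on III (order-statistic 95% interval 2.37 to 2.52), against 2.60 on II (2.52 to 2.67), 2.52 on IV (2.45 to 2.60), 2.48 on V (2.43 to 2.58) and 2.43 on X (2.38 to 2.50). The interval for III shared only its upper bound with that for II and overlapped the other 3. On III 76.6% of the regions reached 2-fold, 30.1% reached 3-fold and 6.55% reached 5-fold. The input factor, by which input reads had been multiplied before the comparison, was 1.876 on III and 1.81 to 1.98 on the other 4.

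The sparsest bin of III had the highest median enrichment, as did the sparsest bins of II (2.89) and V (2.77). Those of IV (2.30) and X (2.44) did not. In bin 2 of III the median enrichment was 3.00 (2.69 to 3.25). In the neighbouring bins 1 and 3 it was 2.38 (2.18 to 2.71) and 2.54 (2.35 to 2.75). The interval of bin 2 lay above those of bins 4, 6, 7 and 8 and overlapped those of the others. Bin 2 also had the lowest median ChIP reads, 65. Its input per kb, the input reads before scaling over the width plus 200 bp, was the lowest too, at 0.614 of the median region of III. Median enrichment in bins 4 to 10 ranged between 2.28 in bin 8 and 2.70 in bin 9, with overlapping intervals. A region with few reads enters the list only at a high ratio. The part that this limit and the lower input had in the higher ratio was not tested.

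Among the listed regions of III, width and enrichment ran in opposite directions. The 34 regions under 50 bp had a median enrichment of 5.25, on 22 ChIP and 4 scaled input reads. It was 2.97 for the 238 regions between 50 and 250 bp, 2.32 for the 467 between 250 and 500 bp, 2.22 for the 245 between 500 and 1000 bp and 1.98 for the 84 of 1000 bp or more. Read numbers moved with width, with a median of 370 ChIP reads in the regions of 1000 bp or more. The limit of q below 0.01 admits a region with few reads only at a high ratio. The lowest enrichment was 3.67 in the regions under 50 bp and 1.35 in those of 1000 bp or more. How much of this order comes with that limit and the read numbers was not tested. None of the 84 wide regions exceeded 3.04-fold. The 22 regions of 2000 bp or more, with a median of 1.94, numbered 15 in arms and 7 in the centre. Arms held 53.0% of all regions on III, and the difference from that share was not tested.

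**Figure D3:**
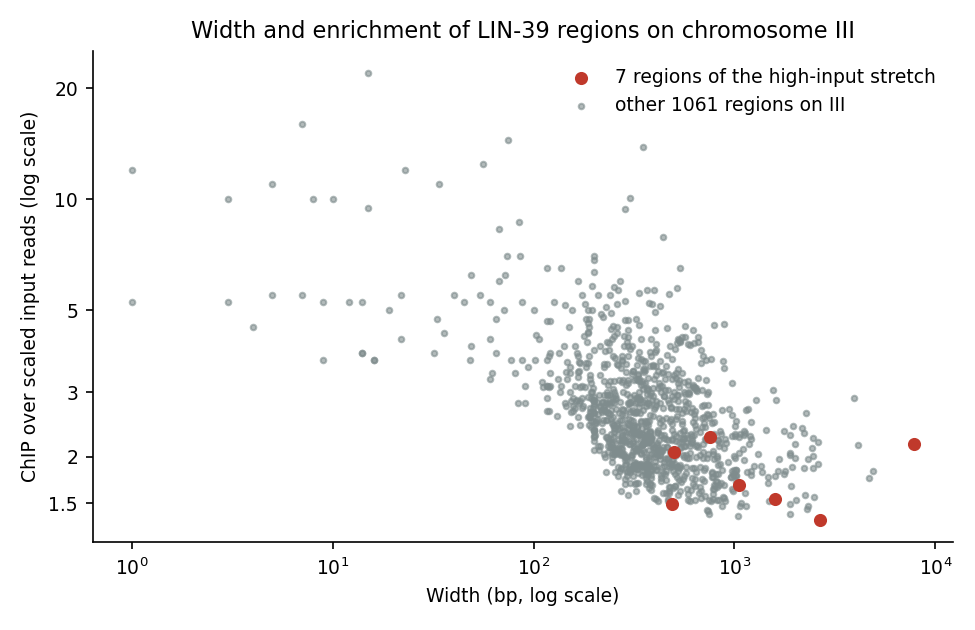
Enrichment, ChIP over scaled input reads (vertical axis, log scale), against width in bp (horizontal axis, log scale) for each of the 1068 regions on III. Regions under 50 bp reach 22-fold, those of at least 1000 bp stay at or below 3.04-fold, and the 7 red points are the high-input stretch around the region with the smallest q.

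The regions of III with the smallest q had many reads, over a great width or at a high ratio. The first, from 7529752 to 7537561, is described with its surroundings further on. The second, from 1923079 to 1927028, had 1439 ChIP reads against 498 scaled input reads, an enrichment of 2.89 over 3950 bp, with q = 4.11e-102 in the authors' deposited list. It lay in bin 2, the sparsest. The third, from 8873799 to 8874690 in bin 7, the fullest, had 598 ChIP reads against 130 scaled input reads, an enrichment of 4.60 within 892 bp, with q = 1.82e-69. The first pair are thus broad and moderately enriched. The third is narrower than they are, but still wider than the upper quartile of 560 bp on III.

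The next 7 spread over both arms and the centre. The region from 12612243 to 12616357, 4115 bp wide, had 1210 ChIP reads at 2.15-fold (q = 9.60e-52 in the authors' deposited list). That from 8416896 to 8418182 had 725 ChIP reads at 2.85-fold, and that from 13070246 to 13071008 had 495 at 3.69-fold. The region from 4017943 to 4020207 followed with 731 ChIP reads at 2.63-fold. Those from 10283986 to 10284779, from 4280236 to 4282831 and from 10758949 to 10759476 were enriched 4.57, 2.19 and 3.24-fold. Of all 10, 6 lay in arms and 4 in the centre, where arms held 53.0% of all regions on III. Their median width was 1776 bp. An input per kb of at least 1.5 times the median region of III was found in 9, a level reached by 22.3% of all regions on III. High input was not particular to these 10. Its median was 1.86 times in all regions of III with at least 200 ChIP reads and 1.69 times in those of at least 1000 bp.

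By enrichment other regions led. The 175 regions of III that held 200 or more ChIP reads had a median of 2.22. The highest was 5.75-fold, in a 520 bp region from 4037244 to 4037763 with 207 ChIP reads against 36 scaled input reads. After it came the region from 8873799 to 8874690 and that from 10283986 to 10284779, both named above, and then those from 4656328 to 4656894 at 4.52-fold and from 3862911 to 3863372 at 4.49-fold. All 5 were narrower than 1000 bp, and 2 of them were also among the 10 with the smallest q. The widest regions were less enriched. After the first region, with 7810 bp, they were those from 9700934 to 9705813 (4880 bp, 1.84-fold) and from 8443580 to 8448245 (4666 bp, 1.75-fold), and then the fourth and the second by q. The 17 regions enriched at least 8-fold had a median of 24 ChIP and 2 scaled input reads, so most of these ratios rest on few reads.

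The midpoints of neighbouring regions were a median of 6673 bp apart, with an interquartile range of 2124 to 16899 bp, against medians of 6240 bp on II, 7341 bp on IV, 7668 bp on V and 5405 bp on X. The nearest midpoint lay within 2000 bp for 419 regions of III, or 39.2%, against 38.1% on II, 35.3% on IV, 35.9% on V and 36.8% on X. This share depends on density and neighbours share their distance, so no test was made. The share was 37.3% in the left arm, 41.6% in the centre and 36.9% in the right arm. At the other extreme, 51 regions or 4.78% had no neighbour within 20000 bp, against 6.24% on II, 8.53% on IV, 11.1% on V and 3.84% on X.

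**Figure D4:**
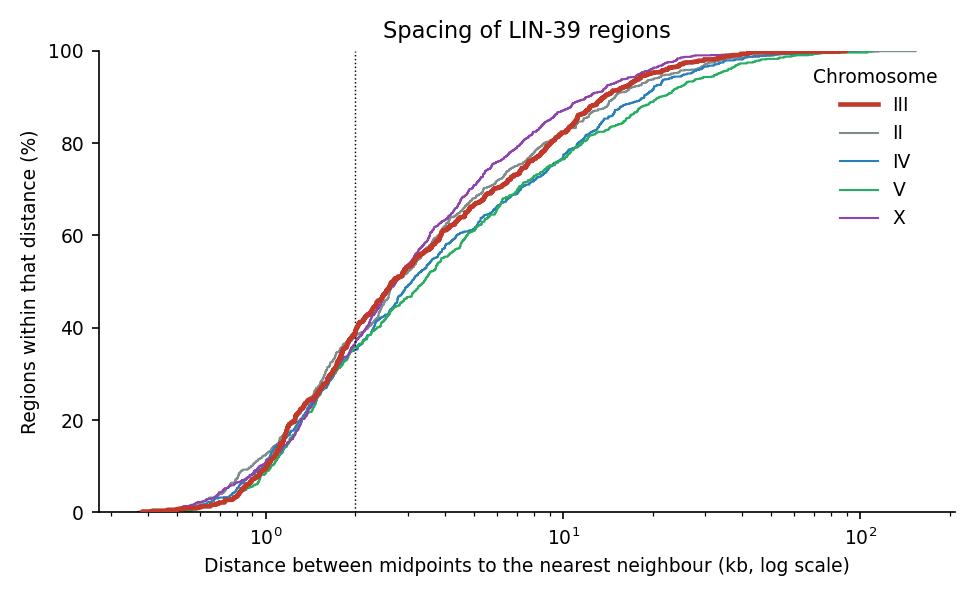
Share of regions (vertical axis, %) whose nearest neighbouring midpoint lies within the distance on the horizontal axis (kb, log scale), for III, II, IV, V and X; the dotted line marks 2 kb. At 2 kb the line of III stands at 39.2%, with the others between 35.3 and 38.1%.

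Neighbouring midpoints within 2000 bp were joined into runs. Of the 1068 regions 649, or 60.8%, stood alone, 242 were in 121 pairs and 102 in 34 runs of 3. The 17 groups of at least 4 held 75 regions, or 7.02%, against 6.53% on II, 5.97% on IV, 6.76% on V and 6.10% on X. Of these groups 9 lay in the centre and 4 in each arm. Regions in groups were wider than those that stood alone, with medians of 425 bp (382 to 569) and 340 bp (327 to 358), but their enrichment was 2.41 (2.29 to 2.63) and 2.44 (2.35 to 2.54), with overlapping intervals. These groups depend on the distance chosen, since no group remained within 1000 bp and 29 were found within 3000 bp.

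The fullest groups differed in how strongly their regions were enriched. The first, from 7718333 to 7726313, held 7 regions in 7.98 kb, all weakly enriched between 1.61 and 2.26-fold, and its best q was 2.40e-10 in the authors' deposited list. Its input per kb was 1.06 to 1.95 times the median region of III. The second, from 6133237 to 6141922, held 6 regions in 8.69 kb with 2.16 to 4.03-fold enrichment and 1300 ChIP reads in all. Its most enriched region, from 6135087 to 6135687, had 238 ChIP reads against 59 scaled input reads. The third, from 8286146 to 8290618, held 5 regions in 4.47 kb, of which one from 8287313 to 8287939 had 232 ChIP reads at 4.07-fold and the other 4 had 33 to 79 ChIP reads at 2.47 to 2.88-fold. The fourth, also of 5 regions, from 3064125 to 3070356, ranged between 1.93 and 2.80-fold. By enrichment, then, 1 region stood above its neighbours in the second group and in the third, whereas by ChIP reads 2 others of the second group were higher, at 284 and 277.

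The longest stretches without a region lay in the arms of III. The longest ran from 1249656 to 1418688, 169 kb in the left arm, and the next from 2173195 to 2303723, 131 kb, also in the left arm. The others of the longest 5 were from 12369737 to 12469982 (100.2 kb, right arm), from 982318 to 1080533 (98.2 kb, left arm) and from 12082337 to 12177995 (95.7 kb, right arm). The centre had no gap over 84.3 kb. Gaps over 50 kb numbered 46 on III, of which 21 were in the left arm, 13 in the centre and 12 in the right arm, although the centre is longer than either arm. On II, IV, V and X there were 63, 77, 109 and 58, and their longest gaps were 212, 185, 559 and 218 kb.

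The region with the smallest q, q = 3.83e-223 in the authors' deposited list, stood in a stretch of high input in the middle of III. It was 7810 bp wide and held 5088 ChIP reads, 3.59% of all ChIP reads in the regions of III, against 2345 scaled input reads. The next highest region of III held 1439. The unbroken run of regions around it with input per kb of at least 1.5 times the median of III went from 7523950 to 7554200. By this rule every region in it exceeds 1.5. It held 7 regions and 8621 ChIP reads, 6.08% of those in regions of III, on 2.83% of the covered length.

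Within the run, input per kb was 2.92 and 2.67 times the median in the 2 regions to the left, 4.70 in the first-ranked region, and 1.98, 4.51, 5.37 and 5.68 in the 4 to its right. Enrichment from left to right was 1.54, 1.49, 2.17, 2.06, 1.68, 2.27 and 1.35-fold. The last value, in the region from 7551548 to 7554200 with 1362 ChIP against 1010 scaled input reads, was the lowest of all regions on III. As averages over whole regions, the highest input values thus lay to the right of the first-ranked region. Input at points within that 7810 bp region, or between regions, was not resolved. Of the 5 regions on III with input of at least 4 times the median, 4 were in this run, and the other, from 3801199 to 3802011, stood at 4.13 with 1.72-fold enrichment. On II, IV, V and X there were 2, 0, 0 and 4 regions of at least 4 times the median of their own chromosome. These medians were 26.8, 29.1, 26.8 and 28.9 input reads per kb, against 33.2 on III, so the level was higher on III. Every animal carried lin-39 DNA in the transgene besides the gene on III. The position of lin-39 on WS180 was not used here, so whether the run includes it, and the part of the transgene in its input, was not tested.

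**Figure D5:**
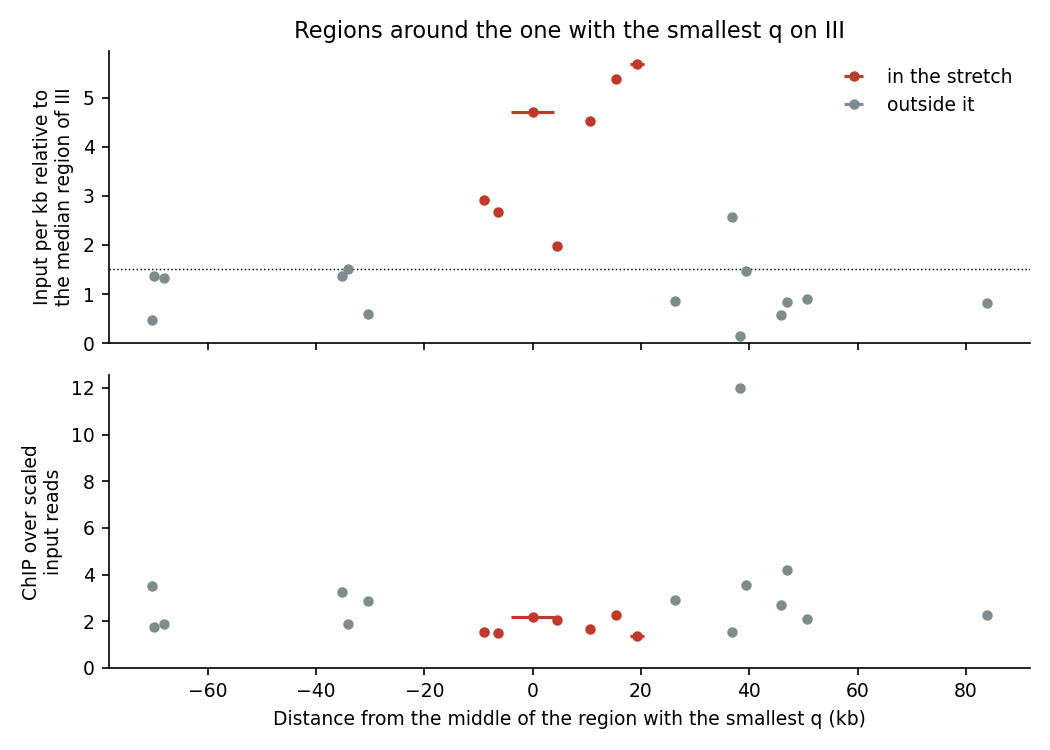
Input per kb relative to the median region of III (upper panel) and enrichment, ChIP over scaled input reads (lower panel), for regions within 100 kb of the middle of the region with the smallest q (horizontal axis, distance in kb). Horizontal bars are region widths and the dotted line marks 1.5; the 7 red regions reach 5.68 times the median input, and their enrichment stays at or below 2.27.

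Without the 7 regions of this run, an alternative chosen after the data were seen, the density ratio of III to the 4 chromosomes was 1.18 (1.11 to 1.27), the ratio of arms to centre 0.762 (0.674 to 0.862) and the median enrichment 2.47. Other runs of high input on III were shorter or less pronounced. The next by number, from 8794639 to 8802370, held 5 regions in 7.73 kb with a median of 3.07 times the median region. On III 9 runs held at least 4 regions, against 14, 4, 8 and 9 on II, IV, V and X, each by its own median. The longest run elsewhere, on II from 14349427 to 14497141, held 10 regions with a median of 2.27 times the median region of II.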

How the data were processed

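Chromatin from L3 hermaphrodites of strain OP18 was sequenced as ChIP and input, 2 libraries each, grouped by the labels' descriptions. The values used are q-values in 1 deposited list, made with PeakSeq on WormBase WS180, per the file headers and columns; aligner, versions, filters and the way replicates were combined are not given in the sources used here.

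The q-values times rank never fell along the list, the form of p multiplied by the number of tests. At 25497 tests all 60 of the commonest values were binomial tails with probability 0.5; at the next best number 1 was. Each p was solved for ChIP and scaled input reads (relative tolerance 3e-11), which left 10 regions of 7493 with 2 solutions, none on III. The reads are thus inferred; the deposited list gives none. The input factor of a chromosome was a multiplier, applied to whole numbers and rounded up. The one chosen had the largest excess of the share of input numbers reached over the share of all whole numbers reached. On III these shares were 97.5% and 53.3%, and the second does not allow for the choice among many factors. Input per kb is the unscaled input over the width plus 200 bp.

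Positions are region midpoints, 1-based. Intervals are exact binomial (95%), or order statistics for medians, and cover counting error only; without molecular identifiers reads are not independent molecules. The tests are Fisher's exact tests, with Benjamini-Hochberg adjustment over 4 comparisons. Named on III are the 10 regions with the smallest q, the 5 widest, the 5 most enriched with at least 200 ChIP reads, the 3 fullest groups, the 5 longest gaps, the fullest and emptiest of 10 bins and of the 1 Mb windows, and the high-input run around the smallest q; other named items were chosen after their values were seen. Members and lists were chosen with earlier results of these data known. The procedure was tested on simulated data. Python 3.11.15, numpy 2.4.6, scipy 1.17.1 and pandas 2.3.3 were used.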

Additional observations from a re-analysis of the deposited data

How the results depend on the processing

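No paired analysis was possible because the list used here joins the replicates; for that reason single replicates were not left out either. Reference lengths of WS180 were not used here. The density ratio of III to II, IV, V and X stayed above 1 in all 6 alternatives (1.16 to 1.27), including the input of III multiplied by the average factor of II, IV, V and X (1.18, 1054 regions kept). The ratio of arms to centre on III stayed below 1 in all 7 (0.671 to 0.820). Against the 4 together the share in arms did not pass in the main setting (odds ratio 0.925, Fisher's exact test, p = 0.261) or any of 5 alternatives; against IV it passed with arms of 35% (odds ratio 0.815, adjusted p = 0.040), and adjusted p was 0.095 to 0.599 in the other 4. For wide regions the odds ratio turned to 1.47 against II with a limit of 1500 bp and to 0.969 against IV with 800 bp, neither past the threshold. Other values moved with the limit itself. Median width was 490 bp in the better-scoring 50% and 412 bp at q of 0.001 or less, where wide regions made up 14.1 and 10.8%; they were 12.2% from 800 bp and 3.84% from 1500 bp. Regions with a near neighbour were 9.64% within 1000 bp and 66.5% within 5000 bp, and groups of at least 4 were 0 within 1000 bp and 29 within 3000 bp. Edge to edge there were 47.5% and 27 groups, in the better-scoring 50% 25.05% and 3 groups, and at q of 0.001 or less 29.6% and 7 groups. Median enrichment was 2.33 with a strict inequality in the binomial tail, 2.61 in the better-scoring 50% and 2.25 with at least 50 ChIP reads; the cause was not tested. The factor between fullest and emptiest was 2.06 to 2.77 for the 10 bins and 2.27 to 3.41 for 1 Mb windows. Depth limits the ratios of regions under 50 bp, with a median of 4 scaled input reads.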

Other observations

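Very narrow regions were a small class on III. The 34 under 50 bp, or 3.18%, had a median width of 14.5 bp and 22 ChIP reads, against 4.73% on II, 3.51% on IV, 5.10% on V and 2.85% on X. They lay in arms and centre in similar numbers, 16 and 18. The narrowest were 1 bp wide, at 7571874 with 24 ChIP against 2 scaled input reads and at 12555510 with 21 against 4. An exception among the regions with high ratios was the 349 bp region from 11967034 to 11967382, with 83 ChIP reads against 6 scaled input reads, a 13.8-fold enrichment at q = 4.49e-17 in the authors' deposited list; it was chosen after its values were seen.

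No 2 regions of III were closer than 201 bp edge to edge, and the shortest gap on II, IV, V and X was 200, 205, 201 and 203 bp. Joining regions closer than 500 bp would merge 68 neighbouring pairs on III, leave 1000 regions and give a median width of 360.5 bp; the widest would be 8652 bp.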
